A study of Mus musculus with 15 samples.

Results

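Hepcidin, its mouse paralog and 8 further genes of systemic iron control were followed in the livers of 15 mice. The 10 genes, Hamp, Hamp2, Tfr2, Tfrc, Hfe, Hfe2, Bmp6, Slc40a1, Trf and Id1, were taken by name from the 20325 genes in the deposited tables. For 9 of them the symbol matched directly, and Tfr2 is listed under the RefSeq synonym Trfr2. All 10 passed the filter on low counts and were among the 12377 genes tested.

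The animals were male C57BL/6J mice of 19 weeks, 3 in each of 5 groups, and each library is the liver RNA of 1 mouse. GF mice were germ-free throughout, ConvR mice had carried a microbiota from birth, and ConvD mice were born germ-free and colonized at 15 weeks by 1 gavage of cecal contents from chow-fed ConvR donors, 4 weeks before dissection. From 3 weeks of age mice ate either a chow diet, with 23.7% of energy from fat, 53.2% from carbohydrate and 23.1% from protein, or one rich in fat and sucrose (HF/HS), with 44.6%, 40.6% and 14.8%. Both diets were fed to GF and ConvR mice, and ConvD mice received chow alone. GF and ConvR mice lived in separate isolators and ConvD mice in sealed cages, and cages were shared by colonization status and diet, so housing and group cannot be told apart. The iron content of the diets is not given in the sources used here.

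Hepcidin, the product of Hamp, is a peptide hormone made by hepatocytes that binds the iron exporter ferroportin (Slc40a1) and causes its degradation, which lowers iron entry into plasma from the gut, macrophages and liver. Hepatocytes transcribe Hamp through a BMP-SMAD route, in which the ligand BMP6 from sinusoidal endothelial cells acts on BMP receptors together with hemojuvelin (Hfe2), with HFE and transferrin receptor 2 as sensors of iron-loaded transferrin, and through an IL-6-STAT3 route in inflammation. Hamp2 is a neighbouring paralog in the mouse whose peptide has not been found to act on iron in the same way.

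The promoters of the 2 hepcidin genes are shown because the genes are close copies whose values differed in the data. The windows are the 250 bases before the annotated start in RefSeq (GRCm38.p6), at chr7:30944030-30944279 for Hamp and chr7:30924182-30924431 for Hamp2, both on the minus strand and upstream of the transcribed region. Capitals mark the 6 bases at the place of the BMP-responsive core GGCGCC and the 9 bases that match the STAT motif TTCNNNGAA.
Hamp: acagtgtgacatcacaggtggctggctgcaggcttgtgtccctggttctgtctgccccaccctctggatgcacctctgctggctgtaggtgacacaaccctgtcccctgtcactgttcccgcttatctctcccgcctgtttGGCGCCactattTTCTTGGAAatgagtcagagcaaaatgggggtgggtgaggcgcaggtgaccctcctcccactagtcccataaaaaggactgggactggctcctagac
Hamp2: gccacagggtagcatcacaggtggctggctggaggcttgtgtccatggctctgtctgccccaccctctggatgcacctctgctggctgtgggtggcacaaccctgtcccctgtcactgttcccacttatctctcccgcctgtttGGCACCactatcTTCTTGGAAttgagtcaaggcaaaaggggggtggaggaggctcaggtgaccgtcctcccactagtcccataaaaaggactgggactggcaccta
Over 247 aligned pairs of bases 227 were identical, or 91.9%. The core GGCGCC, which reads the same on both strands, lay 109 to 104 bases before the start in Hamp, whereas Hamp2 carried GGCACC there, the substitution G4A counted from 1 at the motif's 5′ end. The STAT match TTCTTGGAA was the same in both, at 97 to 89 bases before the start in Hamp and 94 to 86 in Hamp2. GGCGCC occurred in 9.59% of 32841 RefSeq promoter windows of this length, TTCNNNGAA, on either strand, in 7.02%, and both in 0.368%. Windows were found for 6 of the 10 genes, and among the other 4 (Tfr2, Tfrc, Hfe and Bmp6) only a window of Tfrc held GGCGCC, 89 to 84 bases before the start. The windows of the BMP pathway genes Id3, Smad6 and Atoh8, searched as well, held neither motif. A match is a description of the letters, and binding was not measured.

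Levels are CPM, expected counts scaled to a common library size with TMM factors, from libraries of 14737578 to 21794811 expected counts. A difference was called at an adjusted p below 0.05 by edgeR's quasi-likelihood test, where p-values were adjusted by the Benjamini-Hochberg method over all genes tested, and is given as a log2 fold change ± its standard error. The 6 pairwise comparisons share groups, so they are not independent of each other. The tissue was bulk liver, in which fewer cells of a type and less RNA per cell cannot be told apart, and all 10 hepatocyte markers were detected. The libraries of ConvR chow mice 1 and 2 stood apart by their acute-phase transcripts: Saa2, a serum amyloid A gene, was at 9886.8 and 12793.0 CPM there, at 695 in ConvR chow mouse 3 and at 4.27 to 53.8 in the other 12 livers. For calls named below that compare ConvR chow mice with another group and that ended without these 2 mice, the value without them is given. For cell markers only the loss of the call is stated. A fit without these 2 mice leaves 1 mouse in the ConvR chow group.

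Of the 10 genes, 3 (Hamp, Tfrc and Hfe) were called in at least 1 comparison, with 5 calls among 70 tests. In ConvR against GF mice on HF/HS, 1 gene rose (Hamp) and 1 fell (Tfrc), where 1.62% of all genes were called, 0.881% higher and 0.735% lower. In HF/HS against chow, 2 of the 10 (Hamp and Hfe) fell in GF mice, where 9.55% of all genes were called, 5.45% lower. There 1 (Hamp) fell in ConvR mice, where 14.6% were called, 7.8% lower. In the 3 chow comparisons none was called by edgeR, while 4.72% of all genes were called between ConvR and GF, 5.59% between ConvD and GF and 5.5% between ConvD and ConvR. At an unadjusted p below 0.05, 2, 3 and 2 of the 10 genes stood in those comparisons. DESeq2 called 0, 3 and 1 of them, and limma on TPM called 0, 1 and 0. Between ConvR and GF on HF/HS these 2 tools called 2 and 3 of the 10. Between diets they called 0 and 3 in ConvR mice and 4 and 1 in GF mice. The groups did not overlap for 2 of the 10 genes between ConvR and GF on chow (19.5% of all genes), 3 between ConvD and GF (28.8%) and 2 between ConvD and ConvR (30.1%). Between ConvR and GF on HF/HS it was 6 (27.4%), and between diets 1 in ConvR (32.3%) and 4 in GF mice (31.5%). The median log2 fold change of the 10 genes lay between -0.16 and 0.14 in the pairwise comparisons, and that of all genes between -0.02 and 0.00.

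**Figure D1:**
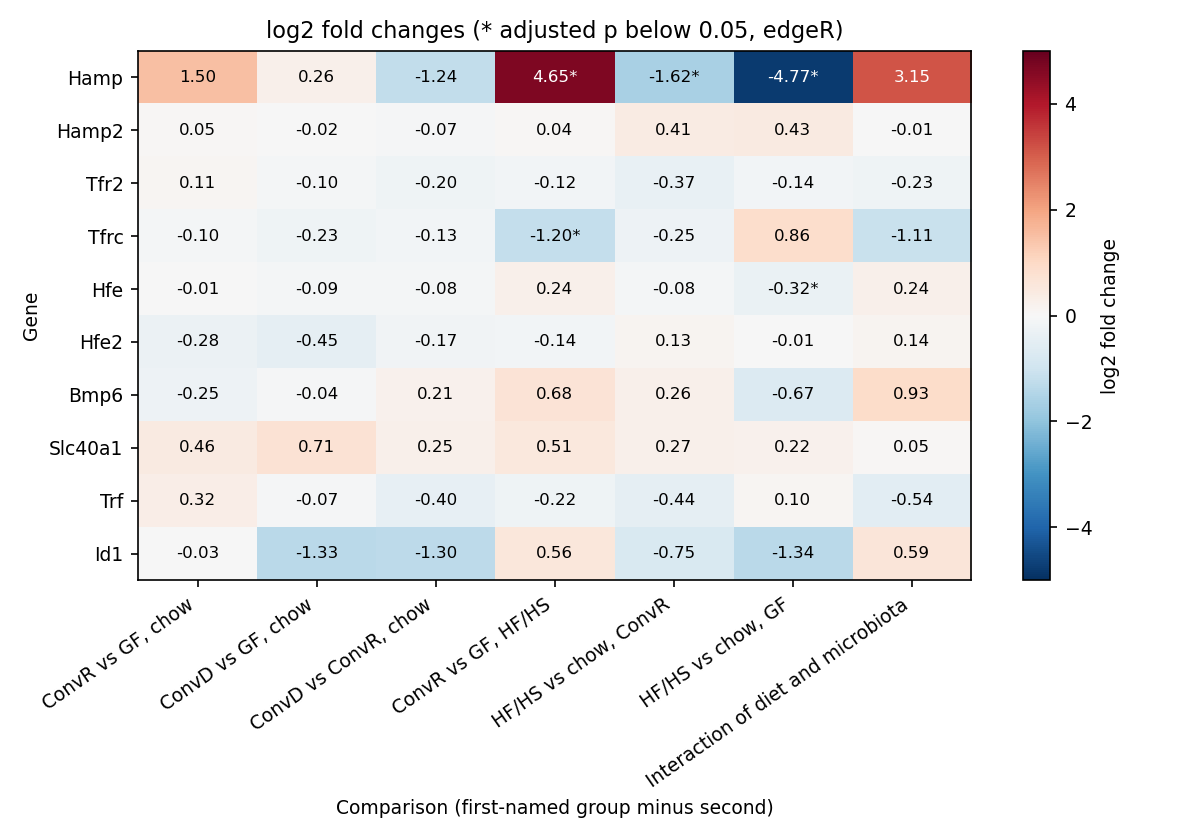
Log2 fold changes of the 10 iron genes (rows) in the 6 pairwise comparisons and the interaction of diet and microbiota (columns), colour giving the change of the first-named group relative to the second and asterisks an adjusted p below 0.05. The strongest colours are those of Hamp, at 4.65 for ConvR against GF on HF/HS and -4.77 for HF/HS against chow in GF mice.

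Hamp was lowest by far in the livers of germ-free mice on the HF/HS diet. Hamp stood at 168, 276 and 178 CPM in the GF chow mice and at 15.3, 4.43 and 2.99 CPM in the GF HF/HS mice. Behind the last 3 values were 302, 84.2 and 51.3 expected counts. Every GF HF/HS value was below every value of the other 4 groups, and the highest and lowest of the 15 libraries differed 281-fold. Hamp fell by 4.77 ± 0.61 on the log2 scale with HF/HS in GF mice, a level 27.2-fold lower than on chow (adjusted p = 0.00109). Among 12377 genes this change ranked 8 by size and 15 by p. It was called in 25 of 25 alternative analyses, at -5.81 to -4.39.

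With a microbiota, the level on the same diet was near that of germ-free mice on chow. ConvR HF/HS mice had 217, 96.8 and 260 CPM of Hamp, 2 of the 3 within the range of GF mice on chow and all above the GF HF/HS mice. Hamp was 25.1-fold higher in ConvR than in GF mice on HF/HS (log2 4.65 ± 0.60, adjusted p = 0.00321), rank 5 by size and 7 by p of all genes. This call also held in 25 of 25 alternatives, at 4.28 to 5.69.

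On chow the difference was smaller and was not called. Hamp in ConvR chow mice was at 287, 638 and 839 CPM, each above the 3 GF chow mice, with the largest SD in CPM of the 5 groups (588 ± 279, SD, n = 3), though GF HF/HS mice spread further as a ratio. The ConvR against GF difference on chow was 1.5 ± 0.51 (adjusted p = 0.0984; 0.0608 to 0.431 over 25 alternatives). Without ConvR chow mice 1 and 2 the difference was 2.01 (adjusted p = 0.431), and the highest Hamp value was in mouse 3, whose Saa2 was the lowest of the 3.

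ConvD mice, with 163, 304 and 278 CPM, overlapped the GF chow mice (0.26 ± 0.50, adjusted p = 0.792). They also overlapped ConvR chow mice at the lower end (-1.24 ± 0.51, adjusted p = 0.155; -1.76 and 0.373 without ConvR chow mice 1 and 2). In ConvR mice Hamp fell with HF/HS by 1.62 ± 0.51 on the log2 scale, to 0.326 of its chow level (adjusted p = 0.049), and the groups did not overlap. That call ended in 18 of 25 alternatives, among them DESeq2 (adjusted p = 0.0551), removal of the length trend (0.102) and the fit without ConvR chow mice 1 and 2 (-2.13, 0.0816). It ended in 11 of the 15 fits that left out 1 library (adjusted p 0.052 to 0.168): GF chow 2 or 3, ConvR chow 2 or 3, any ConvD chow mouse, GF HF/HS 2 or any ConvR HF/HS mouse.

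The microbiota difference in Hamp was larger on HF/HS than on chow by 3.15 ± 0.75 on the log2 scale, but this interaction did not pass adjustment in edgeR (adjusted p = 0.171), which called 0% of all genes, although 1573 had an unadjusted p below 0.05. DESeq2 called 150 genes for the interaction, Hamp among them (adjusted p = 0.0226), and limma on TPM called 1192, Hamp again among them (0.0336). Of those 1192, 97.8% were positive, and the median of all genes was 0.268 on that scale. Without ConvR chow mouse 3 edgeR called the Hamp interaction as well (0.0269). Over 25 alternatives the Hamp interaction lay between 2.63 and 4.19, with adjusted p from 0.0226 to 0.684.

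**Figure D2:**
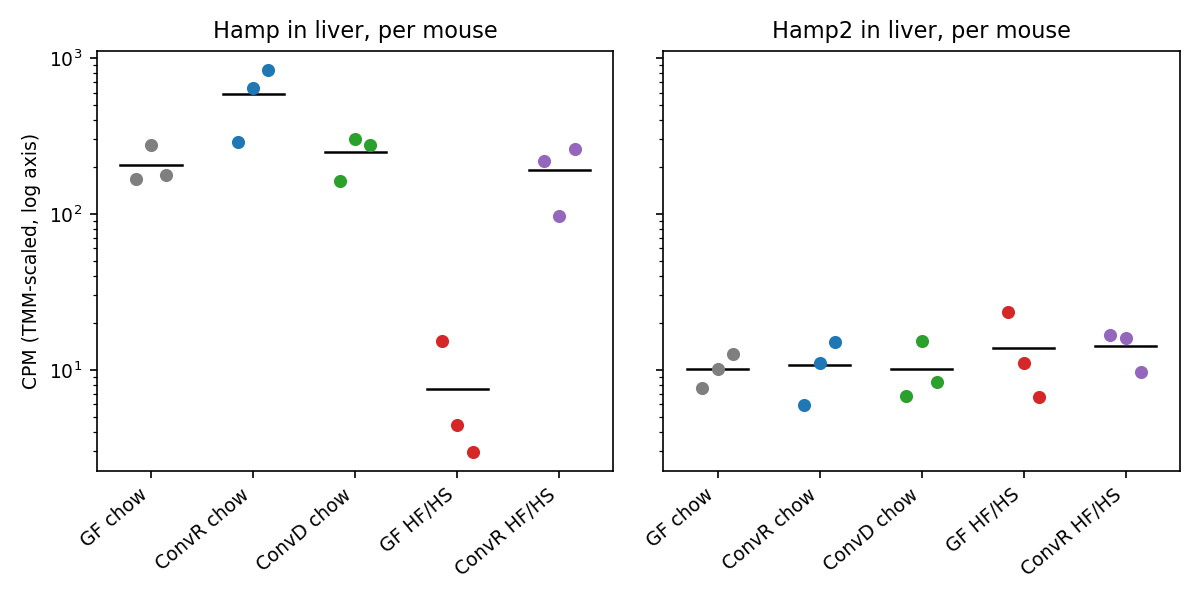
Hamp (left) and Hamp2 (right) in each liver, as TMM-scaled CPM on a log axis, 3 mice in each of the 5 groups. Hamp sits at 2.99 to 15.3 in GF HF/HS mice and at 96.8 or more in every other mouse, while Hamp2 spans 5.96 to 23.6 over all 15 livers.

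Hamp2 gave no call in any comparison. It stood at 7.69, 10.1 and 12.7 CPM in GF chow mice, 5.96, 11.0 and 15.1 in ConvR chow, and 6.75, 15.2 and 8.33 in ConvD chow. In GF HF/HS mice it was at 23.6, 11.0 and 6.68 CPM, and in ConvR HF/HS mice at 16.8, 16.0 and 9.70. All groups overlapped, pairwise log2 fold changes lay between -0.07 and 0.43 with standard errors of 0.42 to 0.44, and adjusted p ran from 0.562 to 0.988.

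Per length, Hamp2 was the less abundant of the pair in 12 livers and the more abundant in the 3 of GF HF/HS mice. It amounted to 1.51% to 14.5% of the Hamp TPM in the other 4 groups and to 136%, 218% and 197% in GF HF/HS mice. The log2 ratio of Hamp to Hamp2 CPM averaged 4.34 ± 0.49 (SD, n = 3) in GF chow, -1.03 ± 0.36 in GF HF/HS and 3.68 ± 1.07 in ConvR HF/HS mice. The difference in this ratio was -5.37 between diets in GF mice and 4.71 between ConvR and GF on HF/HS. A two-sided exact permutation test gave p = 0.1 for each, the smallest that 3 against 3 allows (adjusted p = 0.12 over 6 such tests).

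The transcripts are near copies, so the division of reads between them by the counting step is uncertain, but their sum does not depend on it. The sum of both was 218 ± 59.9 CPM (SD, n = 3) in GF chow, 599 ± 284 in ConvR chow, 258 ± 78.7 in ConvD chow, 21.3 ± 15.5 in GF HF/HS and 206 ± 82.4 in ConvR HF/HS mice. GF HF/HS mice, at 9.66 to 38.9, did not overlap any other group in the sum either. The mean sum was 10.2-fold higher in GF chow and 9.64-fold higher in ConvR HF/HS than in GF HF/HS mice.

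Bmp6, the ligand that sets Hamp to the body's iron stores, was low in whole liver, at 5.09, 3.43 and 2.13 CPM in GF chow, 2.18, 2.52 and 1.86 in GF HF/HS and 3.15, 2.72 and 4.64 in ConvR HF/HS mice. The ConvR HF/HS mice lay above the GF HF/HS mice, by 0.68 ± 0.34 (adjusted p = 0.364), and the difference between diets in GF mice was -0.67 ± 0.34 (adjusted p = 0.234). ConvR chow and ConvD chow mice had 1.54 to 3.80 CPM of Bmp6, and the gene was called in no comparison.

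Hfe2, which encodes the BMP co-receptor hemojuvelin, stood at 67.2, 71.1 and 95.2 CPM in GF chow and 62.2, 58.5 and 50.5 in ConvD chow mice. The 2 groups did not overlap, and the difference of -0.45 ± 0.13 was not called (adjusted p = 0.0572), though DESeq2 called it (0.0234). On HF/HS, Hfe2 was at 71.4 to 82.0 CPM in GF and 60.5 to 78.6 in ConvR mice, which overlapped.

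Hfe, the gene mutated in classical hereditary hemochromatosis, was called in 1 comparison. Hfe fell by 0.32 ± 0.08 on the log2 scale with HF/HS in GF mice, from 49.3, 43.7 and 53.9 CPM to 41.1, 38.3 and 38.1 (adjusted p = 0.0247). In ConvR HF/HS mice it was at 44.4, 47.3 and 46.8 CPM, above every GF HF/HS mouse, a difference of 0.24 ± 0.08 that edgeR did not call (adjusted p = 0.151). Of 25 alternatives 2 called it, limma on TPM (0.43, 0.0162) and edgeR without normalization factors (0.41, 0.0141). On these 2 scales the median of all genes was 0.157 and 0.165, and 93.8% and 93.5% of called genes were higher. The call between diets ended without GF chow 3 or without any GF HF/HS mouse (adjusted p 0.0538 to 0.0937), on TPM (0.0941), with the groups compared alone (0.132) and with the length trend removed (0.0923).

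Tfr2, the liver's second transferrin receptor and a sensor of iron-loaded transferrin, varied little, between 276 and 456 CPM in the 15 livers. Its furthest difference was -0.37 ± 0.14 for HF/HS against chow in ConvR mice (adjusted p = 0.0908), with overlapping groups. That difference was called without ConvR chow mouse 3 (-0.53, adjusted p = 0.00653) and was 0.00 without ConvR chow mice 1 and 2 (0.995).

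Id1, a transcription regulator switched on directly by BMP-SMAD signalling, was scarce, at 1.05 to 7.30 CPM. It was at 4.89, 5.31 and 3.72 CPM in GF chow, 2.97, 3.32 and 7.30 in ConvR chow and 1.56, 2.81 and 1.05 in ConvD chow mice. On HF/HS it was at 2.28, 1.84 and 1.34 CPM in GF mice and 4.15, 2.62 and 1.27 in ConvR mice. ConvD mice lay wholly below both other chow groups, and GF HF/HS mice below GF chow mice.

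None of those Id1 differences was called by edgeR. The values were -1.33 ± 0.44 for ConvD against GF (adjusted p = 0.0872), -1.30 ± 0.44 for ConvD against ConvR (0.0961) and -1.34 ± 0.44 for HF/HS against chow in GF mice (0.0722). DESeq2 called all 3, at 0.0279, 0.0377 and 0.0249. Between ConvR and GF on HF/HS, where Hamp differed 25.1-fold, Id1 overlapped (0.56 ± 0.45, adjusted p = 0.619).

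Tfrc moved in the opposite direction to Hamp on HF/HS. Tfrc encodes transferrin receptor 1, through which most cells take up iron, and its messenger is stabilized by the iron regulatory proteins when cell iron is low. It stood at 50.4, 69.2 and 71.7 CPM in GF HF/HS and 33.2, 29.8 and 20.0 in ConvR HF/HS mice. Tfrc was lower in ConvR mice, by -1.2 ± 0.26 (2.30-fold, adjusted p = 0.0349), with separate ranges. The call held in 18 of 25 alternatives and ended without ConvD chow 2, any GF HF/HS mouse or any ConvR HF/HS mouse (adjusted p 0.0512 to 0.159).

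Within GF mice, Tfrc was higher on HF/HS than on chow, where it was at 21.1, 33.9 and 49.9 CPM, by 0.86 ± 0.26, which missed the threshold (adjusted p = 0.0513). The highest GF chow mouse was just under the lowest GF HF/HS mouse, and DESeq2 called the difference (0.0145). ConvR and ConvD chow mice, at 23.8 to 36.4 CPM, lay within the GF chow range. The interaction for Tfrc was -1.11 ± 0.37 (adjusted p = 0.271).

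Slc40a1, the gene of ferroportin, was not called in any comparison by edgeR. Its highest values were in single mice, 155 CPM in ConvR chow 3 and 200 in ConvR HF/HS 3. ConvD chow mice had 139, 145 and 143 CPM against 62.6, 107 and 91.7 in GF chow mice, a difference of 0.71 ± 0.23 with separate ranges (adjusted p = 0.0752). DESeq2 (0.0262) and limma on TPM (0.0291) called that difference. For HF/HS against chow in ConvR mice limma on TPM also called Slc40a1 (0.0223), where the median of all genes was 0.296 on that scale. On HF/HS, ConvR mice at 110, 125 and 200 CPM lay above GF mice at 102, 103 and 100, by 0.51 ± 0.23 (adjusted p = 0.292). Ferroportin protein, the target of hepcidin, was not measured.

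Trf, the gene of the plasma iron carrier transferrin, was the most abundant of the 10 genes per length, at 5988.9 to 12012 TPM, ahead of Hamp at 14.6 to 3757.7 and Tfr2 at 153 to 222. Trf ran from 9647.4 CPM in ConvR chow 3 to 21533.1 in ConvR chow 2 and was called in no comparison. The 3 ConvR chow mice spanned the whole range of the 15 livers. Without ConvR chow mouse 3, Trf was called higher in ConvR than in GF chow mice (0.59, adjusted p = 0.019), lower in ConvD than in ConvR (-0.66, 0.0106) and lower in ConvR on HF/HS than on chow (-0.71, 0.00521). Without ConvR chow mice 1 and 2 the same differences were -0.42, 0.34 and 0.30, none of them called (adjusted p 0.406 to 0.556).

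**Figure D3:**
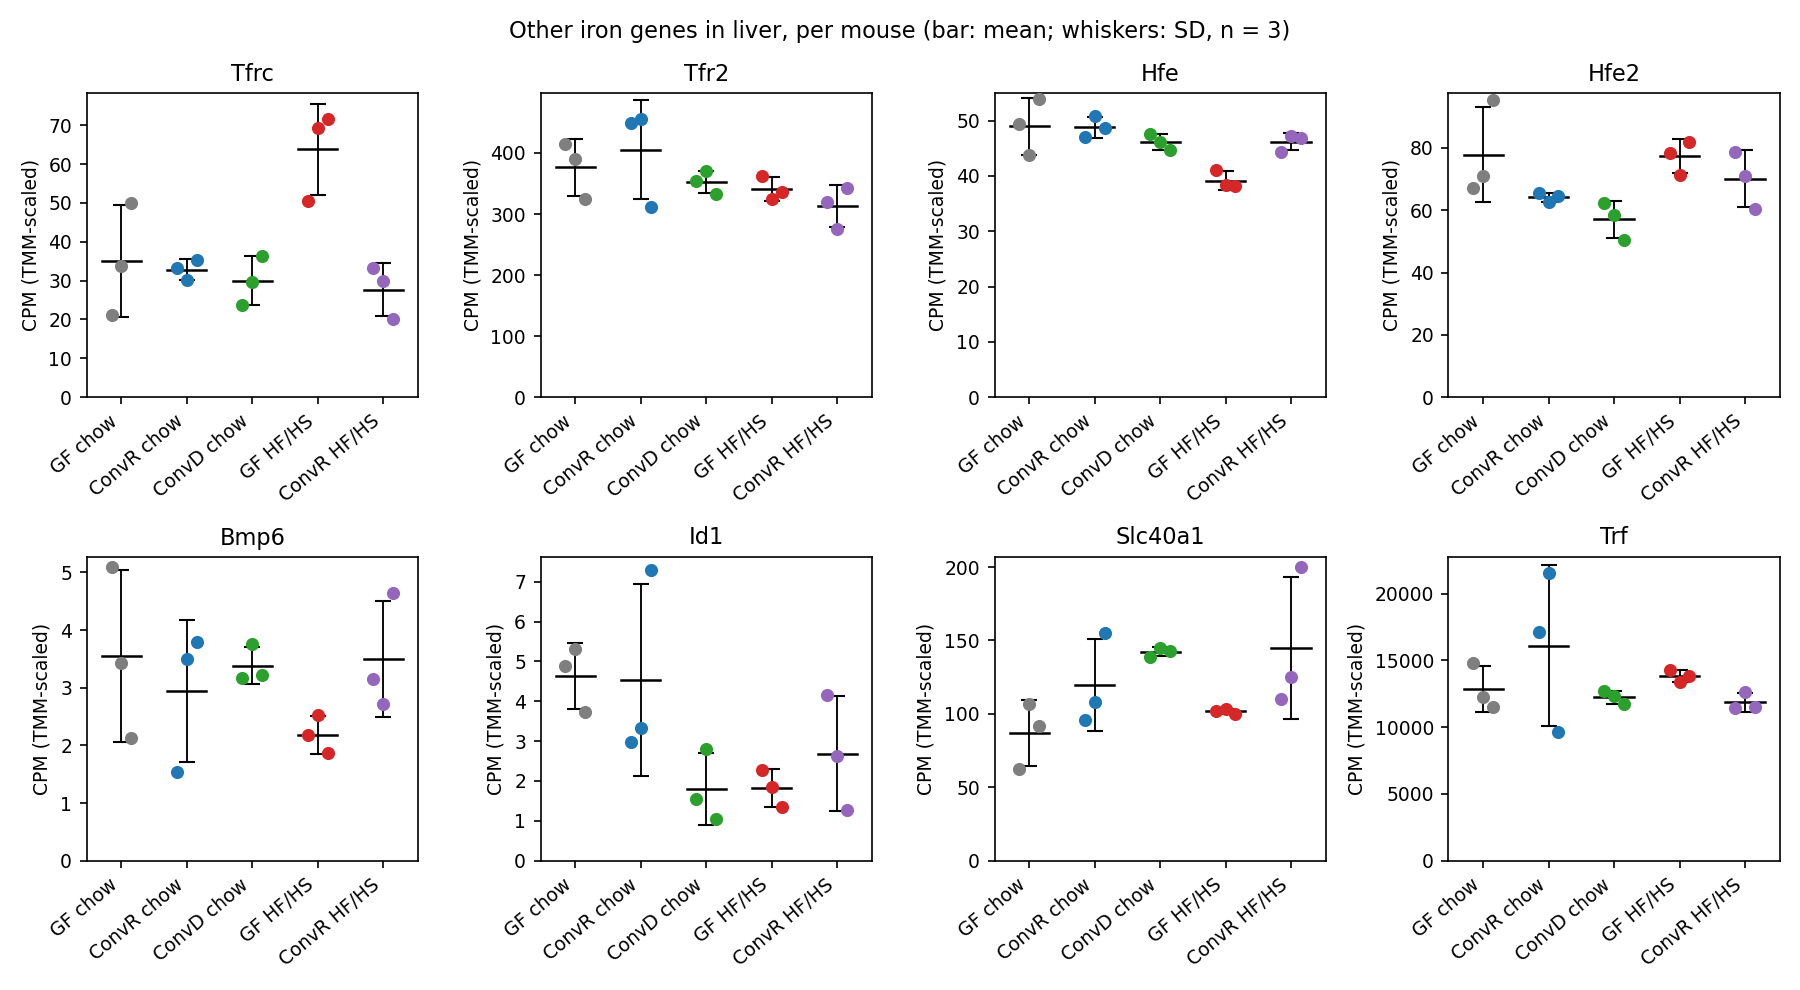
The 8 other iron genes in each liver as TMM-scaled CPM on linear axes that start at 0, with 3 mice a group, the mean as a bar and the SD as whiskers. Tfrc is highest in the 3 GF HF/HS mice (50.4 to 71.7), and the 3 ConvR chow mice spread from 9647.4 to 21533.1 for Trf.

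Further genes of iron control were read from 4 lists: BMP and hemojuvelin signalling (23 genes tested), the IL-6 and STAT3 route (15), cellular iron handling (26) and heme and iron-sulfur synthesis (17). Between ConvR and GF mice on HF/HS edgeR called 0 of these 81 genes, against 1.62% of all genes. There, 14 had an unadjusted p below 0.05, DESeq2 called 5 and limma on TPM called 6. With HF/HS in GF mice 7 of the 81 rose and 8 fell, where 9.55% of all genes were called. In ConvR mice 4 rose and 13 fell with HF/HS, where 14.6% of all genes were called. On chow 13 were higher and 0 lower in ConvR than in GF mice, where 4.72% were called. Without ConvR chow mice 1 and 2, 2 list genes (Saa2 and Lcn2) were higher and 0 lower in ConvR than in GF mice on chow, and with HF/HS in ConvR mice 0 rose and 3 fell. That fit called 12 and 344 of all genes in these comparisons.

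In the BMP list, edgeR called Id3 in every pairwise comparison but that of ConvR with GF on HF/HS. Id3, like Id1 a target of BMP-SMAD signalling, was at 37.7, 63.8 and 48.6 CPM in GF chow, 75.0, 130 and 144 in ConvR chow and 21.4, 20.7 and 20.1 in ConvD chow mice. On HF/HS it was at 15.2, 10.2 and 11.2 CPM in GF and 22.7, 18.3 and 29.8 in ConvR mice. ConvR chow mice were highest, as for Hamp, but ConvD mice were below GF chow mice, which was not so for Hamp.

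Id3 was higher in ConvR than in GF mice on chow by 1.22 ± 0.24 (adjusted p = 0.0195) and lower in ConvD than in GF mice by -1.27 ± 0.25 (0.0157). With HF/HS it fell by 2.04 ± 0.26 in GF mice (0.00109) and fell by 2.30 ± 0.25 in ConvR mice (0.000163). On HF/HS the ConvR mice lay above the GF mice by 0.95 ± 0.26, which edgeR did not call (adjusted p = 0.0805). DESeq2 (0.00826) and limma on TPM (0.017) called it, as did edgeR without ConvR chow 1 and 2 (0.0436). The first call ended when ConvR chow 2 was left out (0.101), as well as when both 1 and 2 were (1.52, 0.0692), and the second ended without any 1 of the ConvD mice (0.0611 to 0.0655).

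In ConvR mice the receptor gene Acvr2b fell by 1.69 ± 0.37 with HF/HS (adjusted p = 0.00776), from 3.57, 3.44 and 1.57 CPM to 0.691, 0.544 and 1.41, while the co-receptor gene Eng and the ligand gene Bmp2 rose by 0.36 and 0.63 (0.0128 and 0.0417). Without ConvR chow 1 and 2 together, Acvr2b was at -0.82 (0.378), Eng at 0.45 (0.0576) and Bmp2 at 0.72 (0.204). The Eng call also ended without ConvR chow 1, and that of Bmp2 in 9 of the 15 fits without 1 library (GF chow 2, any ConvR or ConvD chow mouse, GF HF/HS 3 or ConvR HF/HS 3). Bmpr1a was higher in ConvR than in GF mice on chow by 0.35 ± 0.09 (0.0492), a call that ended in every fit without 1 library other than those of mouse 3 in GF chow and in ConvR chow. With ConvR chow 1 and 2 both left out it was 0.21 (0.65).

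In GF mice Smad7, an inhibitor of the route that it also answers to, fell with HF/HS from 9.02, 6.11 and 8.46 CPM to 5.62, 3.89 and 4.83 (-0.72 ± 0.21, adjusted p = 0.044), while Smad4, the common partner SMAD, and the receptor gene Bmpr1a rose by 0.27 and 0.32 (0.0476 each). Each of these 3 calls ended in 11 to 13 of the 15 fits without 1 library, in those without GF HF/HS 1, 2 or 3, ConvD chow 1, 2 or 3, ConvR chow 1 or 2 or GF chow 1 for all 3. Tmprss6, whose protease cleaves hemojuvelin, was at 403 to 632 CPM and was called in no comparison by edgeR. Its largest difference was -0.28 ± 0.12 for ConvR against GF on chow (adjusted p = 0.194). Between diets in GF mice it was -0.21 ± 0.12 (adjusted p = 0.305), with separate ranges, as for 31.5% of all genes there. Between ConvR and GF on HF/HS it was -0.01 ± 0.12.

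In the IL-6 and STAT3 list, 4 of 15 genes were higher and 0 lower in ConvR than in GF mice on chow, where 4.72% of all genes were called. The 4 were Lcn2, Saa2, Il1r1 and Il22ra1. Without ConvR chow mice 1 and 2, which leaves 1 mouse in that group, Lcn2 was at 5.13 and Saa2 at 6.45. In the same fit Il1r1 went from 2.13 to 0.19 and Il22ra1 from 1.46 to 0.48. With the groups compared alone none of the 4 was called (adjusted p 0.111 to 0.238), in a fit that called 0 of all genes. Leaving out ConvR chow 1 or 2 alone ended the calls of Il1r1 and Il22ra1, and leaving out GF chow 1 or 2 that of Il22ra1. Lcn2, the siderophore-binding protein lipocalin 2, was at 1072.6 and 1453.3 CPM in ConvR chow mice 1 and 2, 75.2 in mouse 3 and 1.31 to 20.1 in the other 12 livers. Hamp did not follow this order, being at 287 and 638 CPM in mice 1 and 2 and 839 in mouse 3. Stat3 was at 160, 111 and 110 CPM in GF HF/HS and 99.9, 85.9 and 134 in ConvR HF/HS mice, and the list gave no call between them by edgeR (3 genes at an unadjusted p below 0.05, 1 called by DESeq2, 0 by limma on TPM). In GF mice Socs3, a feedback inhibitor of the route, fell by 2.80 ± 0.81 with HF/HS (adjusted p = 0.0448), from 47.6, 12.3 and 4.98 CPM to 3.29, 3.10 and 2.74, and Jak2 rose by 0.33 (0.0379). Both calls ended without GF HF/HS 2 or 3 or ConvD chow 2, that of Jak2 also without GF chow 2 or 3, and that of Socs3 also without GF HF/HS 1, GF chow 1, ConvR chow 1, ConvD chow 1 or 3 or any ConvR HF/HS mouse.

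**Figure D4:**
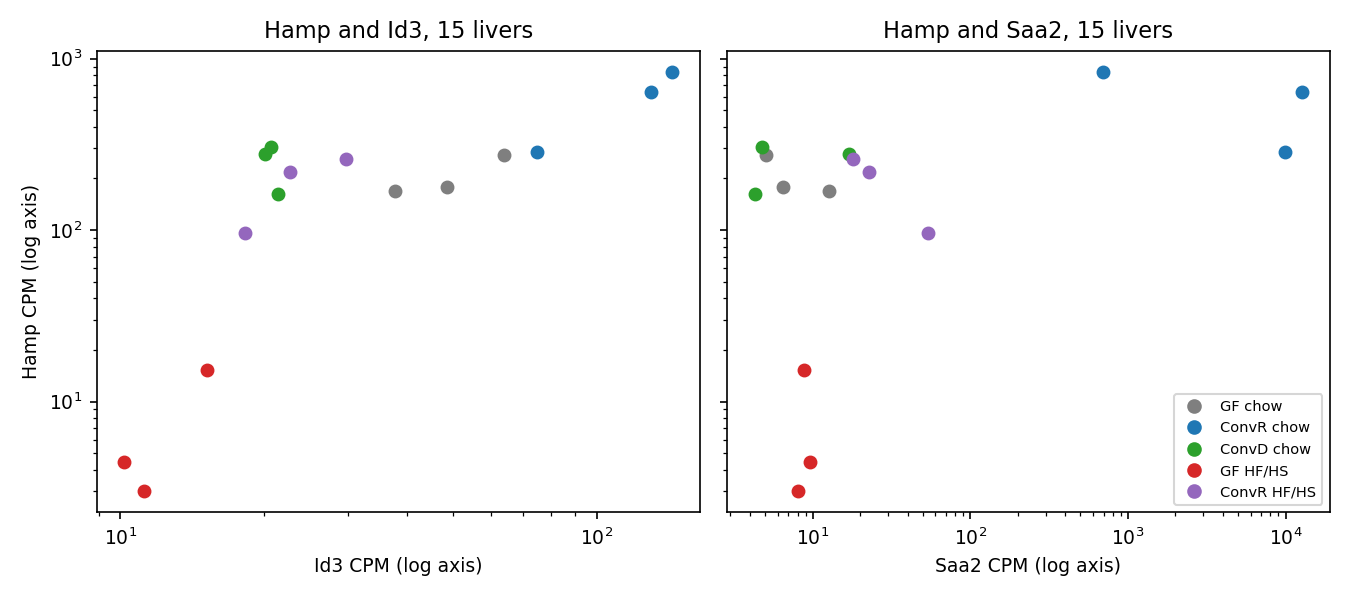
Hamp against Id3, and Hamp against the acute-phase gene Saa2, in 15 livers as TMM-scaled CPM on log axes, coloured by group. The GF HF/HS mice lie lowest for both Hamp and Id3, whereas ConvR chow mice 1 and 2 are far to the right for Saa2 (9886.8 and 12793.0) without the highest Hamp.

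Among the iron handling genes, ferritin light chain moved with diet in GF mice. Ftl1 fell by 0.61 ± 0.15 (adjusted p = 0.0243), from 2311.9, 2415.5 and 3055.2 CPM to 1652.0, 1678.1 and 1753.4. In ConvR HF/HS mice Ftl1 was at 2328.8, 2966.4 and 2272.0 CPM, above every GF HF/HS mouse, in a comparison where 27.4% of all genes had separate ranges. That difference of 0.57 ± 0.15 was not called by edgeR (adjusted p = 0.0734). For Fth1, the heavy chain, the difference between diets in GF mice was 0.03 ± 0.16 (adjusted p = 0.918). The Ftl1 call ended without GF chow 3 or any 1 GF HF/HS mouse (0.0664 to 0.0876), on TPM (0.0796), with the length trend removed (-0.43, 0.0923) and with the groups compared alone (0.056).

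Also in GF mice on HF/HS, Pcbp2, an iron chaperone, and Steap2, a metalloreductase, rose by 0.48 and 1.19 (adjusted p = 0.0119 and 0.0134), and Slc25a28, a mitochondrial iron carrier, fell by 0.43 (0.03). In the heme and iron-sulfur list 3 of 17 genes fell and 0 rose, where 9.55% of all genes were called, 5.45% lower. The 3 were Nfs1 (-0.37), Uros (-0.47) and Iscu (-0.38). Nfs1 and Iscu serve iron-sulfur assembly, and Uros encodes a heme enzyme. The median of that list was -0.24, against -0.01 for all genes. Each of these 6 calls ended without at least 1 GF HF/HS mouse (mouse 2 for Pcbp2 and Nfs1, 1 or 2 for Steap2, any for the others). Those of Slc25a28, Uros and Iscu also ended without GF chow 1, that of Uros without GF chow 2 or 3 and that of Iscu without any ConvD mouse or ConvR HF/HS 2 (adjusted p up to 0.133). With the length trend removed Iscu was at -0.18 (0.247), and the calls of Uros (0.0655) and Slc25a28 (0.0884) ended. On TPM the calls of Nfs1, Uros, Iscu and Slc25a28 ended (0.0671, 0.115, 0.164 and 0.0918). All 6 calls ended with the groups compared alone (adjusted p 0.0515 to 0.104).

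On chow, 7 of 26 iron handling genes were higher and 0 lower in ConvR than in GF mice, where 4.72% of all genes were called. Among the 7 were Hpx and Hp, the carriers of heme and hemoglobin in plasma, the iron importer Slc11a2 and the metalloreductase Steap4. Hp was at 13598.5 and 18210.7 CPM in ConvR chow mice 1 and 2 and 2648.2 in mouse 3, against 3976.1, 2655.7 and 2142.4 in GF chow mice. Without those 2 mice the differences were -0.14 for Hp, -0.08 for Steap4, 0.14 for Hpx and 0.20 for Slc11a2, none of them called. ConvD mice had Picalm, Slc25a37 and Pcbp2 higher than GF mice, by 0.42, 0.36 and 0.36, and each call ended without any 1 of the ConvD mice, those of Slc25a37 and Pcbp2 in 13 and 12 of the 15 such fits.

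Markers of the cells that bear on these genes were also read. Of the erythroid markers 6 were tested and 0 were called in any pairwise comparison by edgeR, where 1.62% to 14.6% of all genes were called. In these comparisons 0 to 2 had an unadjusted p below 0.05, and DESeq2 called 0 to 1. With 6 genes, the lack of calls does not show that erythroid content was unchanged. Their summed level was 309 to 546 CPM in GF HF/HS and 283 to 416 in ConvR HF/HS mice. Of 12 sinusoidal endothelial markers, 4 rose and 0 fell with HF/HS in GF mice, where 9.55% of all genes were called, and their sum was 301 to 381 CPM on chow and 402 to 454 on HF/HS. In ConvR mice 5 rose and 0 fell, where 14.6% were called, with sums of 349 to 397 and 404 to 480. Those 5 calls in ConvR mice ended when ConvR chow mice 1 and 2 were both left out. Of 13 Kupffer cell markers 1 (Cd68) rose with diet in GF mice, and the sums on HF/HS were 485 to 594 in GF and 519 to 804 in ConvR mice. Between ConvR and GF on chow, where 4.72% of all genes were called, 2 Kupffer cell markers (Cd163 and Cd68) were higher. So were 3 of 6 neutrophil and monocyte markers (Prtn3, S100a8 and Ccr2), whose sum was 11.2 to 62.3 CPM in ConvR and 7.75 to 12.2 in GF chow mice. All these marker calls on chow ended without ConvR chow mice 1 and 2, a fit that leaves 1 mouse in that group. Of 10 hepatocyte markers edgeR called 1 (Ahsg) lower in ConvR than in GF mice on HF/HS, where 1.62% of all genes were called. There 5 of the 10 had an unadjusted p below 0.05, DESeq2 called 5 and limma on TPM called 1. Their median log2 fold change was -0.5. The hepatocyte markers summed to 129628.0 to 137921.3 CPM in GF HF/HS and 91301.0 to 97752.0 in ConvR HF/HS mice. The part of all these markers in the iron results was not tested. Libraries also differed in how counts moved with transcript length, with rank correlations of -0.451 to -0.192 in GF chow and 0.115 to 0.28 in GF HF/HS mice. With that trend removed, Hamp still fell by 4.42 with diet in GF mice.

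By the mean absolute difference of centred log2 CPM over the 15 libraries, the genes most like Hamp among 7842 compared were Id3 (1.2), Tsku (1.23) and Unc13b (1.29), against a median of 1.79. A gene level in all libraries would also score 1.79, the mean absolute deviation of Hamp itself, so even the nearest genes followed Hamp only in part. Tsku, the gene of the secreted protein tsukushi, was at 18.6, 12.0 and 16.4 CPM in GF HF/HS and 68.9, 89.6 and 89.8 in ConvR HF/HS mice. Unc13b was at 6.05, 4.83 and 4.02 CPM in GF HF/HS and 9.98, 12.2 and 17.5 in ConvR HF/HS mice. For both, every GF HF/HS mouse lay below every ConvR HF/HS mouse, as for Hamp, with far smaller ratios.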

How the data were processed

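Liver RNA of 15 mice was sequenced from stranded mRNA libraries, per the labels' protocols. The authors deposited RSEM 1.2.23 expected counts and TPM per gene, made with Bowtie2 on mm9, per the submitters' processing notes. Their read filters and strand setting are not given in the sources used here.

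Expected counts were rounded and tested with edgeR 4.0.16 in R 4.3.3: all 15 libraries, 5 group means, filterByExpr with a minimum count of 10, TMM, the quasi-likelihood F test (two-sided, 10 residual degrees of freedom) and Benjamini-Hochberg adjustment over 12377 genes. Depth was 14737578 to 21794811 counts per library. Each group held 3 mice, so a change in a scarce gene such as Bmp6 or Id1 is imprecise. Alternatives used DESeq2 1.42.0, limma 3.58.1 on log2(TPM + 1), other scalings, filters and fits, a length trend removed, and libraries left out. The edgeR fit was tested on simulated data.

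All 10 iron genes were named. From each list up to 4 called genes per comparison were named, by smallest adjusted p, with 13 genes allowed in any comparison. The genes most like Hamp, Tfrc and Id1 were the 3 with the smallest mean absolute difference of centred log2 CPM, among genes with mean log2 CPM of at least 3. The members and lists were chosen with earlier results of these data known. For 1 gene of the lists, results are not reported here, and list counts leave it out.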

Additional observations from a re-analysis of the deposited data

How the results depend on the processing

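Direction was compared wherever a difference passed the threshold in 1 of the 2 analyses. Over single genes and alternatives 7292 results stayed on the same side of the threshold, 173 passed it newly, 377 lost it and 5 changed direction. The latter were, without ConvR chow 1 and 2, Hp at -0.14 and Steap4 at -0.08 for ConvR against GF on chow, and, on TPM for HF/HS against chow in ConvR mice, Hfe at 0.31, Bmpr1a at 0.33 and Nfs1 at 0.27; the median of all genes there was 0.296 on TPM, and the cause was not tested further.

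Counts of called genes are given for ConvR against GF on chow, ConvD against GF, ConvD against ConvR, ConvR against GF on HF/HS, HF/HS against chow in ConvR, the same in GF, and the interaction. They were 584, 692, 681, 200, 1802, 1182 and 0. DESeq2 gave 1044, 1164, 1121, 515, 2006, 1546 and 150, and limma on TPM gave 937, 912, 3725, 791, 6100, 623 and 1192. Groups compared alone gave 0, 11, 84, 457, 841, 259 and 0. No normalization factors gave 599, 623, 1090, 765, 3238, 1076 and 6. Removal of the length trend gave 287 for ConvD against GF and 660 for diet in GF mice. Without ConvR chow 1 and 2 the counts were 12, 732, 6, 275, 344, 1236 and 0. For the interaction, no filter gave 2 and the stricter filter 10. The fits without 1 library ranged over 46 to 1655, 79 to 962, 15 to 1611, 16 to 459, 984 to 2597, 301 to 1440 and 0 to 436.

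Of the genes called, 54.1%, 40.2%, 39.9%, 54.5%, 46.4% and 42.9% were higher in the pairwise comparisons, against 40.6%, 63.7%, 73.5%, 93.5%, 84.8% and 36.2% without normalization factors and 17.1%, 88.5%, 94.6%, 93.8%, 95.6% and 64.8% on TPM. The median of all genes moved by over 0.1, from -0.02 or nearer to 0, for ConvR against GF on HF/HS (0.165 and 0.157), for diet in ConvR mice (0.186 and 0.296) and for the interaction (0.221 and 0.268) on these scales, on TPM for ConvR against GF (-0.104) and ConvD against GF on chow (0.097), and for ConvD against ConvR on chow (0.096 and 0.209). Hamp's changes in GF mice with diet and between ConvR and GF on HF/HS exceed these shifts.

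The replicate numbers did not pair the mice: deviations of 30 same-numbered pairs correlated at -0.23 to 0.246, and 0 libraries correlated best with their own number in every other group. A fit with the number as a block gave 402, 489, 479, 143, 1617, 1000 and 0 called genes. Under the block the Hamp difference between diets in ConvR mice was not called (adjusted p = 0.0757).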

Other observations

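The genes nearest to Tfrc by the same measure were Gamt (0.263), Serpinb9 (0.263) and Gbp6 (0.267), against a median of 0.44 and 0.41 for a gene level in all libraries. Gamt, an enzyme of creatine synthesis, was at 127, 136 and 131 CPM in GF HF/HS and 97.9, 93.1 and 72.1 in ConvR HF/HS mice. Those nearest to Id1 were Rnaset2b (0.398), Cox17 (0.417) and Nudt8 (0.436), against a median of 0.66 and 0.63 for a level gene. Rnaset2b stood at 32.8, 24.6 and 27.0 CPM in GF chow and 11.5, 10 and 10.6 in ConvD chow mice. Id2, another gene of the Id family, was at 60.9, 117 and 130 CPM in GF chow and 81.8, 47.1 and 62.6 in GF HF/HS mice, which overlapped (-0.69 ± 0.29, adjusted p = 0.151).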
